A study of Rattus norvegicus with 4 samples.

Results

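The miR-29 family was followed here in the small RNA of rat exosomes, the vesicles that cells shed into their medium. Its members, rno-mir-29a, rno-mir-29b and rno-mir-29c, were found by hairpin name, with numbered genomic copies of a hairpin added together, which gave 3 of the 262 named rat miRNA hairpins that had a count. Exosomes of adipose tissue (Exo-AT, 2 libraries) came from minced fat of 4-week-old Sprague-Dawley rats, stirred as explants at 100 rpm in 75 mL of medium for 3 days. Exosomes of adipose stem cells (Exo-ADSCs, 2 libraries) came from cells at passage 3, held without serum for 3 days; the labels do not give their strain. Tag counts, the reads of each distinct sequence as the authors assigned them to hairpin entries, were used for the libraries titled Exo-AT1, Exo-AT2 and Exo-ADSCs2, so the stem cell group rests on 1 library and has no SD. The labels name no treatment or genotype, and whether replicates stem from separate animals or cultures is not stated. The p-values thus reflect spread among these samples, which may be technical, and those of edgeR pool it over all tested miRNAs.

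miR-29 is known as an antifibrotic family. Its members pair with messenger RNAs of collagens, elastin and other matrix proteins and lower their output, and in fibroblasts transforming growth factor beta lowers miR-29 itself. In fat, miR-29a is known to be raised in adipose tissue of diabetic rats, and in cultured mouse adipocytes excess miR-29 blunts the insulin response. A miRNA finds targets mainly through its seed, bases 2 to 8 from the 5′ end, so a read that starts elsewhere carries another seed.

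The 3 mature 3p forms shared one seed, shown in capitals in these RefSeq sequences, so reads of any of them would address the same seed matches.
rno-miR-29a-3p: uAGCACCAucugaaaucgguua
rno-miR-29b-3p: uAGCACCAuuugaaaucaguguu
rno-miR-29c-3p: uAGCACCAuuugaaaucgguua
Counted from the 5′ end, miR-29c-3p differed from miR-29a-3p by the single change C10U. miR-29b-3p differed from miR-29a-3p by C10U, G18A, U21G and A22U and was 1 nt longer. A tag of 15 nt therefore told miR-29a from the other members but could not have told miR-29b from miR-29c.

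On the GRCr8 assembly the 4 hairpin genes lie in 2 pairs, each pair on one strand. Mir29a and Mir29b1 are on the minus strand of chromosome 4, 291 bases apart, with mature miR-29a-3p at chr4:60617968-60617989. Mir29b2 and Mir29c are on the plus strand of chromosome 13, 447 bases apart, with mature miR-29c-3p at chr13:109099412-109099433, inside the span of the long non-coding RNA gene LOC102550527, whose strand the table does not give. The deposited entries for miR-29b numbered 3 but held only the Mir29b1 and Mir29b2 sequences, and both miR-29c entries held the Mir29c sequence. RefSeq also lists miRNA genes on the opposite strand of 3 of these hairpins, Mir3556a across Mir29a, Mir3587 across Mir29b1 and Mir3556b across Mir29c. mir-3556a had 0 and 10 counts in Exo-AT1 and Exo-AT2, against 17 counts in Exo-ADSCs2. All of them came from a single 15 nt sequence with 1 mismatch that did not overlap the annotated mature miR-3556a. No sequence was listed under mir-3587 or mir-3556b in any of the 3 libraries.

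The libraries differed in depth and make-up. Named miRNA hairpins held 9134 and 136024 counts in Exo-AT1 and Exo-AT2, against 97204 in Exo-ADSCs2, while all counts assigned to hairpins came to 15200, 181049 and 715114 in that order. Hairpins that the authors had predicted took 39.9% and 24.9% of assigned counts in Exo-AT1 and Exo-AT2, against 86.4% in Exo-ADSCs2. Exo-AT1 and Exo-AT2 are given one and the same sample name within their files. Their miRNA counts differed by more than counting error (chi-square 1607 on 133 degrees of freedom), but reads are not independent molecules, so separate libraries of one sample could differ by as much, and this does not show that they are separate samples. Sequences read only once are not in the files, so a count of 0 means that no sequence of that form was read at least 2 times, and no upper limit is set on it.

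miR-29a-3p made up nearly the whole family. It had 14 counts in Exo-AT1 and 254 in Exo-AT2, against 111 in Exo-ADSCs2. miR-29b-3p had 0 counts in both Exo-AT libraries and 3 in Exo-ADSCs2, and miR-29c-3p had 0 in both Exo-AT libraries and 4 in Exo-ADSCs2. The 4 counts stand for 3 reads, which the files divide over 2 hairpin entries and round to whole counts at each. The rarer members were thus seen in the stem cell library alone, each through 1 distinct sequence, and the miR-29b reads were divided evenly over its 3 hairpin entries and carried a mismatch at their last base. Within the family miR-29a-3p held 100% of listed counts in both Exo-AT libraries. The Wilson 95% intervals were 78.5 to 100 in Exo-AT1 and 98.5 to 100 in Exo-AT2. In Exo-ADSCs2 it held 94.1% (88.3 to 97.1), or 94.9% when each read is counted once (89.3 to 97.6). The interval of Exo-AT1 takes in these shares. Sequences read once are not listed, so the intervals around 100% set no limit on the rarer members. These intervals, and all others on shares of counts here, cover counting error only, since reads carry no molecular identifiers. No fold is given for miR-29b-3p or miR-29c-3p, which did not pass the filter on low counts, and the other 3 forms, the 5p arms of all members, had 0 counts in every library. A lone arm was common among hairpins of this abundance: of the 39 named hairpins with summed counts between 0.5 and 2 times those of mir-29a, itself included, 21 had no count from the minor arm.

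**Figure D1:**
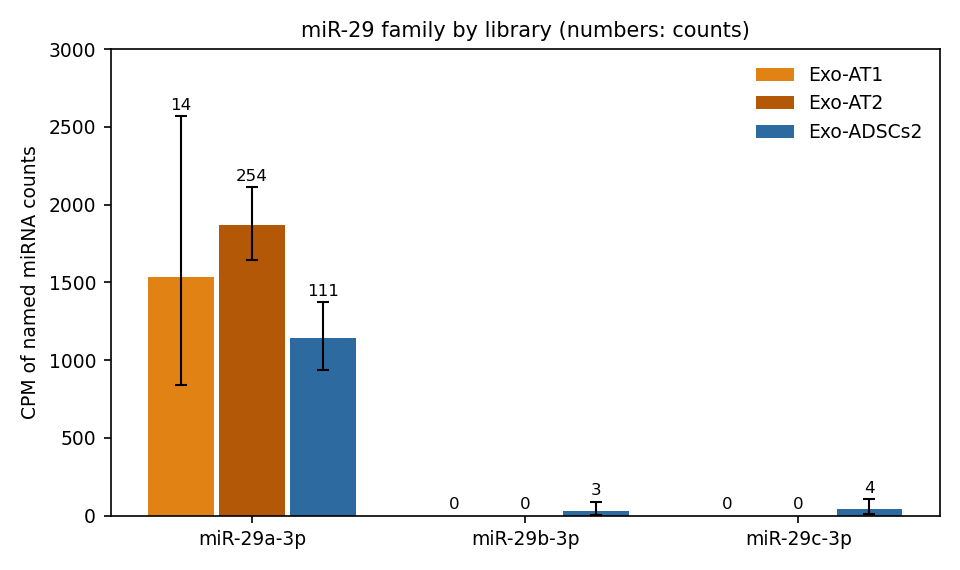
Level of the 3p forms of the miR-29 family in each library, as CPM (counts scaled to the library's named miRNA total). Bars are single libraries, bar ends carry exact Poisson 95% intervals that cover counting error only, and the numbers are counts; miR-29a-3p is seen in all 3 libraries and the other members only as 3 and 4 counts in Exo-ADSCs2, of which the 4 of miR-29c-3p are 3 reads after rounding.

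Relative to named miRNAs, miR-29a-3p stood at 1533 CPM (counts scaled to the library's named miRNA total) in Exo-AT1 (exact Poisson 95% interval 838 to 2572) and 1867 CPM in Exo-AT2 (1645 to 2112), against 1142 CPM in Exo-ADSCs2 (939 to 1375). Both Exo-AT values lay above the stem cell value on this scale, although the interval of Exo-AT1 took it in. miR-29a-3p ranked 52nd of 140 detected miRNAs in Exo-AT1 and 44th of 244 in Exo-AT2, against 42nd of 264 in Exo-ADSCs2. With TMM scaling, which corrects for the few miRNAs that dominate a library, the values were 1107 and 1728 CPM in Exo-AT1 and Exo-AT2, against 1730 CPM in Exo-ADSCs2. On that scale the stem cell library lay level with Exo-AT2 and above Exo-AT1, and the Exo-AT mean was 1417 ± 439 CPM (SD, n = 2).

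miR-29a-3p was not among the miRNAs called between the groups. Its log2 fold change was -0.23 (SE 0.51, 95% interval -1.24 to 0.77; adjusted p = 0.747, edgeR quasi-likelihood test, Benjamini-Hochberg over the 183 miRNAs tested). The interval takes in changes in either direction, so equal levels were not shown. Of the 183 miRNAs, 19.1% were called higher in Exo-AT and 19.1% lower (38.3% in all). The median over all of them was 0.37 on the log2 scale, which put miR-29a-3p 0.61 below the median. Only 14 of the tested miRNAs had a smaller absolute log2 fold change. The sign depended on what the counts were scaled to. With total named counts the log2 fold change was 0.60 (SE 0.54, adjusted p = 0.367, edgeR). When counts were scaled to all hairpin-assigned counts, a choice added after the data were seen, miR-29a-3p had 921 and 1403 CPM in Exo-AT1 and Exo-AT2, against 155 CPM in Exo-ADSCs2. It was then called higher (log2 fold change 2.95, SE 0.53, adjusted p = 3.32e-07 by edgeR), one of 109 of 183 miRNAs called so, and its distance from the median of all miRNAs stayed at -0.59. In such bulk exosome material, fewer source cells of a type, less RNA per cell, fewer vesicles and less miRNA per vesicle cannot be told apart.

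**Figure D2:**
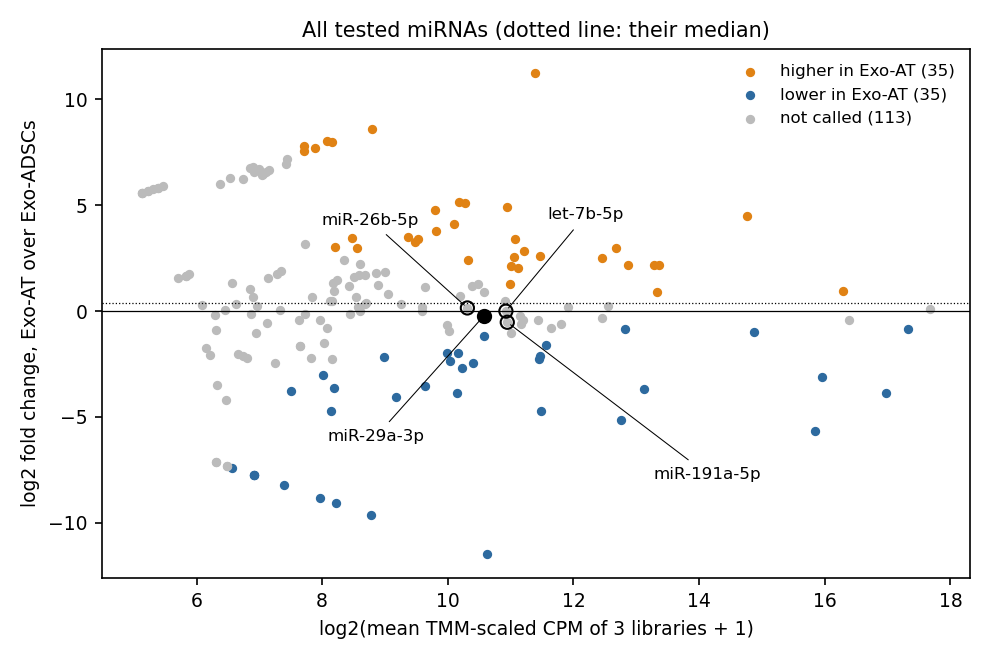
Log2 fold change of Exo-AT over Exo-ADSCs (vertical) against the log2 of mean TMM-scaled CPM plus 1 over the 3 libraries (horizontal) for the 183 tested miRNAs, 1 point each. miR-29a-3p (filled circle) sits at -0.23, between the 35 called higher and the 35 called lower, beside the 3 miRNAs with the most similar levels (open circles).

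The miRNAs with levels most like those of miR-29a-3p were found by distance on log2(TMM-scaled CPM + 10) over the 3 libraries. miR-26b-5p was nearest at a distance of 0.54, with 1028 and 1564 CPM in Exo-AT1 and Exo-AT2 and 1216 CPM in Exo-ADSCs2. let-7b-5p followed at 0.63, with 1265 and 2551 CPM in Exo-AT1 and Exo-AT2 and 2010 CPM in Exo-ADSCs2. miR-191a-5p came next at 0.70, with 1502 and 1905 CPM in Exo-AT1 and Exo-AT2 and 2509 CPM in Exo-ADSCs2. None of the 3 was called by edgeR, and the largest of their absolute log2 fold changes was that of miR-191a-5p (-0.53, SE 0.46). Fold changes near that of miR-29a-3p follow from picking by similar levels in the same libraries, so they are no separate result.

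The reads of miR-29a-3p were not the annotated 22 nt sequence but mostly shorter forms of it. The leading sequences are given as deposited in DNA letters, with the seed of each in capitals, because they show at which end they differ from the annotated form.
19 nt form: tAGCACCAtctgaaatcgg
20 nt form: tAGCACCAtctgaaatcggt
21 nt form: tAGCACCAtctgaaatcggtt
15 nt form: tAGCACCAtctgaaa
The 21 nt form had 7 and 33 counts in Exo-AT1 and Exo-AT2, against 16 in Exo-ADSCs2. The 19 nt form had 4 and 70 counts in Exo-AT1 and Exo-AT2, against 15, and the 20 nt form had 3 and 34, against 21. The 15 nt form had 0 and 7 counts in Exo-AT1 and Exo-AT2, against 25 in Exo-ADSCs2, where it was the most common sequence of miR-29a-3p. The annotated form itself, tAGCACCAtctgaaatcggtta, had 0 and 16 counts in Exo-AT1 and Exo-AT2 and 4 in Exo-ADSCs2. All 5 keep the annotated 5′ end and thus the seed and differ only at the 3′ end. The 14 counts of Exo-AT1 came from 3 sequences, which were also the 3 most common of Exo-AT2.

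Short fragments set the stem cell library apart. Tags of 15 or 16 nt held 0 of 14 miR-29a-3p counts in Exo-AT1 and 2.76% in Exo-AT2 (Wilson 95% interval 1.34 to 5.58), against 41.4% in Exo-ADSCs2 (32.7 to 50.7). The intervals of Exo-AT2 and Exo-ADSCs2 do not overlap, which compares 2 libraries and not the groups. The shortest tags in the files are 15 nt long, so shorter fragments would not be seen. The mean length was 20.2 nt in each of the 2 Exo-AT libraries, against 18.2 nt in Exo-ADSCs2. No miR-29a-3p tag was 17 or 18 nt long in any library, while among all named miRNAs 18 nt held 6.95% and 5.60% of counts in Exo-AT1 and Exo-AT2, against 30.4% in Exo-ADSCs2. In the stem cell library miR-29a-3p thus had no counts at the length where the counts of all named miRNAs peak. That peak is weighted by abundant miRNAs: miR-100-5p, miR-10a-5p and miR-10b-5p had mean lengths of 17.8, 18.6 and 18.8 nt in Exo-ADSCs2. The median of the mean lengths there was 20.9 nt over the 66 miRNAs described next.

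**Figure D3:**
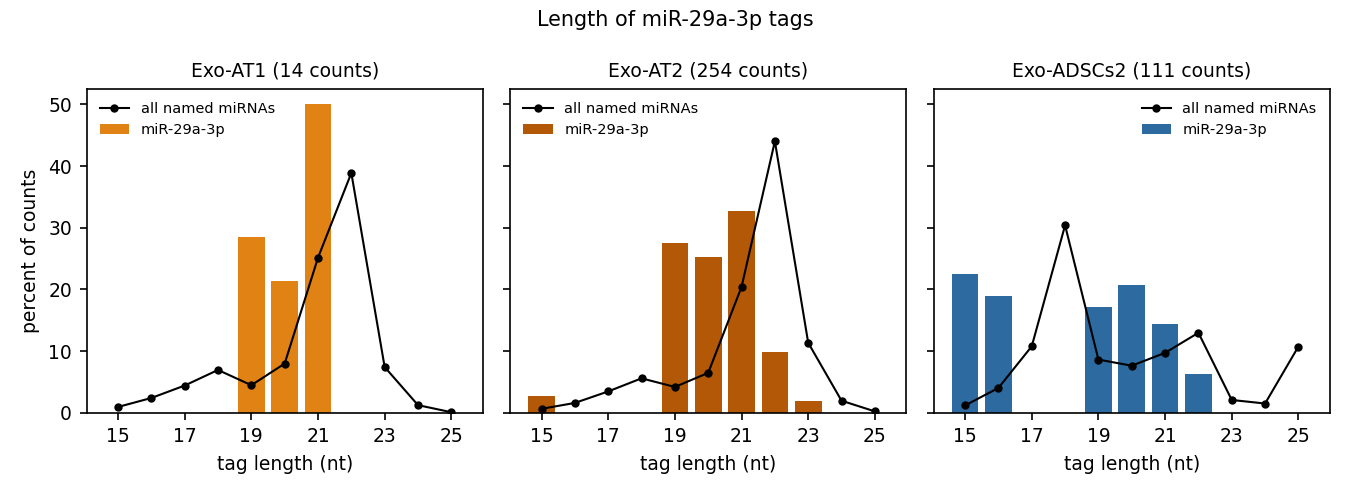
Length of miR-29a-3p tags (bars, percent of its counts) and of all named miRNA tags (line) from 15 to 25 nt, 1 panel per library. In Exo-ADSCs2 the miR-29a-3p counts fall at 15 to 16 nt and at 19 to 22 nt with none at 17 or 18 nt, where all named miRNAs peak at 18 nt with 30.4%.

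The tag ends of miR-29a-3p were set beside those of 66 mature miRNAs, miR-29a-3p included. These were the ones that matched a RefSeq mature sequence and had at least 20 counts in both deeper libraries. Tags that ended before the annotated 3′ end held 88.6% of miR-29a-3p counts in Exo-AT2 (84.1 to 91.9) and 93.7% in Exo-ADSCs2 (87.6 to 96.9). The median over the 66 miRNAs was 45.3% in Exo-AT2 and 62.3% in Exo-ADSCs2, and 58 and 55 of them had a lower share than miR-29a-3p. For tags of 15 or 16 nt, 43 of the 66 had a lower share than miR-29a-3p in Exo-AT2 and 62 in Exo-ADSCs2. Tags with both annotated ends held 6.30% of miR-29a-3p counts in Exo-AT2 and 6.31% in Exo-ADSCs2, against medians of 25.6% and 15.5%. In both libraries miR-29a-3p was thus read mostly as 3′ shortened forms.

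The 5′ end also varied, and it varied differently in the deeper libraries. Tags that began at the annotated base held 65.0% of miR-29a-3p counts in Exo-AT2 (58.9 to 70.6), against 79.3% in Exo-ADSCs2 (70.8 to 85.8), and all 14 counts of Exo-AT1. The median over the 66 miRNAs was also lower in Exo-AT2 (88.1%) than in Exo-ADSCs2 (94.5%), and 6 and 17 of them had a lower share than miR-29a-3p. Tags that began 1 or 2 nt upstream held 31.9% in Exo-AT2 (26.5 to 37.9) and 20.7% in Exo-ADSCs2 (14.2 to 29.2). Such reads carry a shifted seed, as in these leading examples from each library.
Exo-AT2: aTAGCACCatctgaaatcgg
Exo-ADSCs2: cTAGCACCatctgaaa
The first had 27 counts in Exo-AT2 and 0 in Exo-ADSCs2, and the second had 0 in Exo-AT2 and 19 in Exo-ADSCs2. The upstream base in the hairpin is the one that the Exo-ADSCs sequence carries, so the Exo-AT sequence has the substitution C1A, counted from the tag's own 5′ end. Tags with C1A held 49 of 254 miR-29a-3p counts in Exo-AT2, 19.3% (14.9 to 24.6), against 0 of 111 in Exo-ADSCs2 and 0 of 14 in Exo-AT1. A further tag of Exo-AT2 with 11 counts began 2 nt upstream with T1G.

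Mismatched tags accounted for most of that 5′ variation in Exo-AT2. Tags with a mismatch held 34.6% of miR-29a-3p counts there (29.1 to 40.7), against 4.50% in Exo-ADSCs2 (1.94 to 10.1). The median over the same 66 miRNAs was 17.5% in Exo-AT2 and 14.6% in Exo-ADSCs2, and 58 and 8 of them lay below miR-29a-3p. For a mismatch at the first base, miR-29a-3p was at 23.6% in Exo-AT2, where the median was 3.35% and 64 of the 66 were lower, and at 0% in Exo-ADSCs2, where the median was also 0%. Among tags without a mismatch, 96.4% of miR-29a-3p counts in Exo-AT2 began at the annotated base (92.3 to 98.3), against 78.3% in Exo-ADSCs2 (69.5 to 85.1). Without mismatched tags the order of the 2 libraries was thus turned round. Exo-AT1 did not share this pattern: 0 of its 14 listed counts began upstream and 0 carried a mismatch. The Wilson upper limit of 21.5% on each of these shares of listed counts lies below the intervals of Exo-AT2. Sequences read once are not listed, which bears on a library of 14 counts more than on the others, and its part in this difference was not tested. The upstream and mismatched forms described for Exo-AT thus rest on Exo-AT2 alone.

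**Figure D4:**
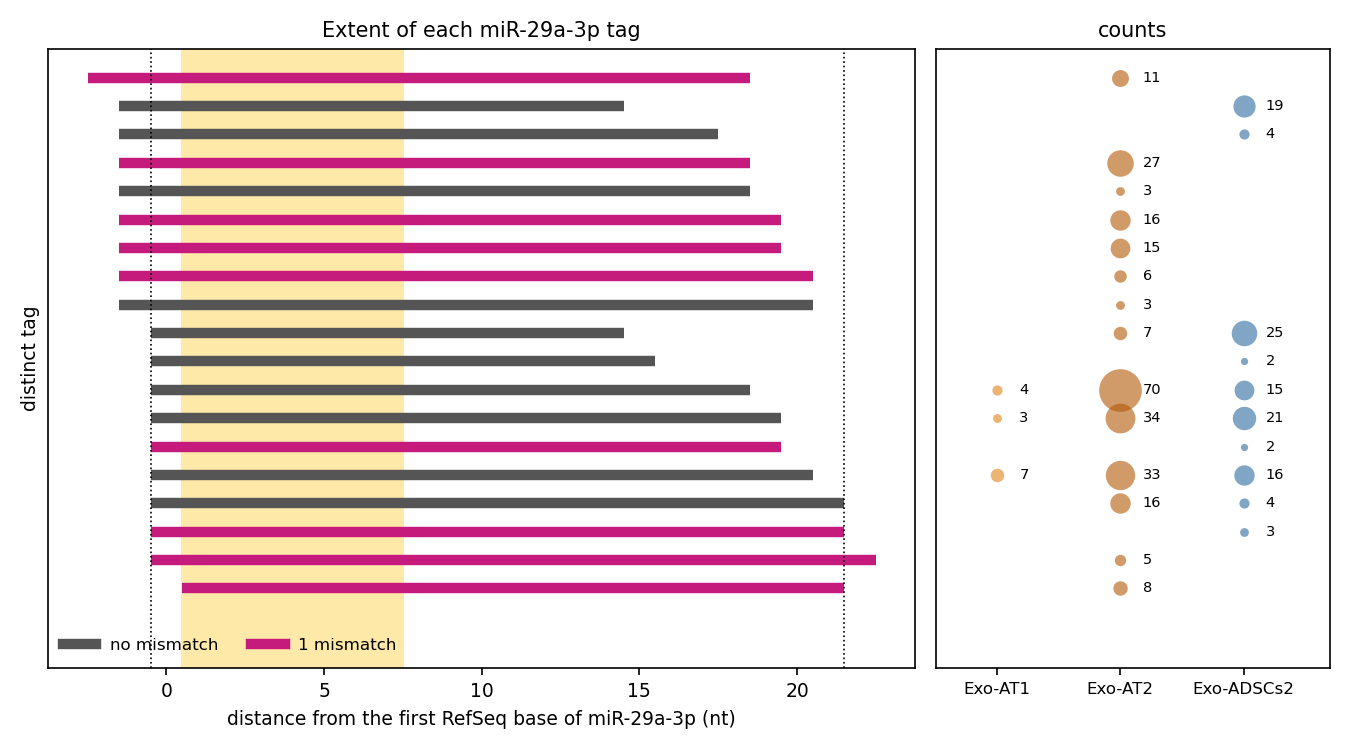
Extent of the 19 distinct miR-29a-3p tags, 1 line each, as distance in nt from the first RefSeq base (left; dotted lines mark the annotated ends, the shaded band the seed), and the counts of each tag in each library (right; circle area is proportional to counts). Most counts that start upstream carry a mismatch in Exo-AT2, and none do in Exo-ADSCs2.

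All 29 miR-29 tags, counted in each library separately, carried the alignment status letter R. The headers do not define it. Every one of the 1623 tags listed under more than 1 hairpin entry had that letter, as did 590 of the 7068 listed under 1 entry. No miR-29a-3p tag was listed under a second hairpin name, so none of its counts were divided with another miRNA in the files, but further alignments that are not listed were not checked here.

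Other miRNAs known for a part in fibrosis were counted for context. Of 16 hairpins reported as antifibrotic in other tissues, 14 were tested by their main arm, and 5 were higher in Exo-AT, 0 lower and 9 not called, where 19.1% of all 183 were called in each direction, with a median log2 fold change of 1.29 against 0.37 for all 183 miRNAs. The most abundant of them were miR-30a-5p (log2 fold change 2.17, SE 0.35), miR-101a-3p (2.16, SE 0.35), miR-30d-5p (2.96, SE 0.39) and miR-26a-5p (2.50, SE 0.39), each called higher. Over the 14 tested, 10 log2 fold changes were above 0 and 4 below. The levels of miR-101a-3p were 14702 and 13645 TMM-scaled CPM in Exo-AT1 and Exo-AT2, against 3164 CPM in Exo-ADSCs2, whereas miR-29a-3p differed by less than the spread of its Exo-AT libraries. All 6 hairpins known as profibrotic were tested, and 0 were higher, 3 lower and 3 not called, with a median of -1.82. Among them 5 log2 fold changes were below 0 and 1 above, that of miR-155-5p (6.73, SE 3.78, not called). miR-21-5p stood at -0.97 (SE 0.27), miR-192-5p at -2.68 (SE 0.57) and miR-214-3p at -4.06 (SE 0.83), each called lower, and miR-199a-3p at -0.43 (SE 0.41), not called. With total named counts, where 19 of all 183 were called lower, the profibrotic list had 2 lower, since miR-21-5p (-0.07) was not called. With all hairpin-assigned counts it had 3 higher and 0 lower, miR-21-5p at 2.23 among them. The antifibrotic list had 10 higher with all hairpin-assigned counts, a setting in which 109 of all 183 were called higher. With only tags of 20 to 25 nt the antifibrotic list had 5 higher and 2 lower of 11 tested. The profibrotic list then had 1 higher, miR-155-5p, and 4 lower of 6 tested. In that setting 30 of all 130 tested miRNAs were called higher and 29 lower. With predicted hairpins included, edgeR called 0 of 401 features, so every call on both lists was lost. The difference between miR-29a-3p and these lists was not tested.

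Some markers of other cell types that fat explants may hold were called between the groups and others were not. Of all 183 tested miRNAs, 19.1% were called in each direction. The endothelial miR-126a-3p was called higher (log2 fold change 3.40, SE 0.56, edgeR), at 2371 and 3782 TMM-scaled CPM in Exo-AT1 and Exo-AT2, against 296 CPM in Exo-ADSCs2. The other arm of that hairpin, miR-126a-5p, was not called (log2 fold change 1.83, SE 0.91). Of the 3 erythroid hairpins miR-486, miR-451 and miR-144, 2 were tested and 1 was called higher. That was miR-486-5p, which made up most of their counts, with 464 and 22521 counts in Exo-AT1 and Exo-AT2, against 3200 in Exo-ADSCs2. Its TMM-scaled levels were 36676 and 153191 CPM in Exo-AT1 and Exo-AT2, against 49869 CPM in Exo-ADSCs2, so the stem cell library lay between the Exo-AT libraries. The call of miR-486-5p (SE 0.27) rests on spread pooled over all tested miRNAs rather than on its own. miR-451-5p had 2 and 190 counts in Exo-AT1 and Exo-AT2, against 55 in Exo-ADSCs2 (log2 fold change -0.01, not called).

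Of the 3 leukocyte hairpins miR-142, miR-150 and miR-223, 2 were tested. miR-150-5p was called higher, with 2 and 69 counts in Exo-AT1 and Exo-AT2, against 0 in Exo-ADSCs2, and miR-142-5p was not called (-0.12). Of the 4 muscle hairpins miR-1, miR-133a, miR-133b and miR-206, matched by exact name, 2 had a count. miR-206-3p had 0 and 2 counts in Exo-AT1 and Exo-AT2, against 12 in Exo-ADSCs2, too few to test. miR-133a-3p, at 0 and 21 counts against 2, was not called. The exact match left out miR-1b-3p, which had 18 and 177 counts in Exo-AT1 and Exo-AT2, against 3 in Exo-ADSCs2. It was called higher (log2 fold change 4.74, SE 0.96, edgeR). Of the 6 epithelial hairpins 5 were tested, with 1 higher and 1 lower, where 19.1% of all 183 were called in each direction. miR-205-5p was the higher one, with 5 and 46 counts in Exo-AT1 and Exo-AT2, against 0 in Exo-ADSCs2, and miR-203a-3p the lower one, with 3 and 28 counts, against 191 (log2 fold change -3.87, SE 0.61). miR-223-3p and miR-200c-3p had 0 counts in Exo-AT1 and Exo-ADSCs2 and 7 and 5 in Exo-AT2. As sums over each list, relative to named counts, erythroid hairpins held 51018 and 166978 CPM in Exo-AT1 and Exo-AT2, against 33527 CPM in Exo-ADSCs2, and leukocyte hairpins 438 and 816 CPM, against 154 CPM. The muscle sums, which leave out miR-1b-3p, were 0 and 169 CPM in Exo-AT1 and Exo-AT2, against 144 CPM in Exo-ADSCs2. The epithelial sums were 2299 and 1360 CPM, against 2263 CPM. With DESeq2 size factors in edgeR the erythroid and leukocyte lists had 0 calls and the epithelial list 0 higher and 1 lower. In that setting 23 of all 183 were called higher and 30 lower. With predicted hairpins included 0 of all these markers were called, as were 0 of all 401 features. The part of these cells in the miR-29a-3p levels was not tested.

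The authors' deposited table lists 45 miRNAs as raised in Exo-AT with values for 4 libraries. 0 of the 45 were members of the miR-29 family, so Exo-ADSCs1 gives no miR-29 value here.

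**Figure D5:**
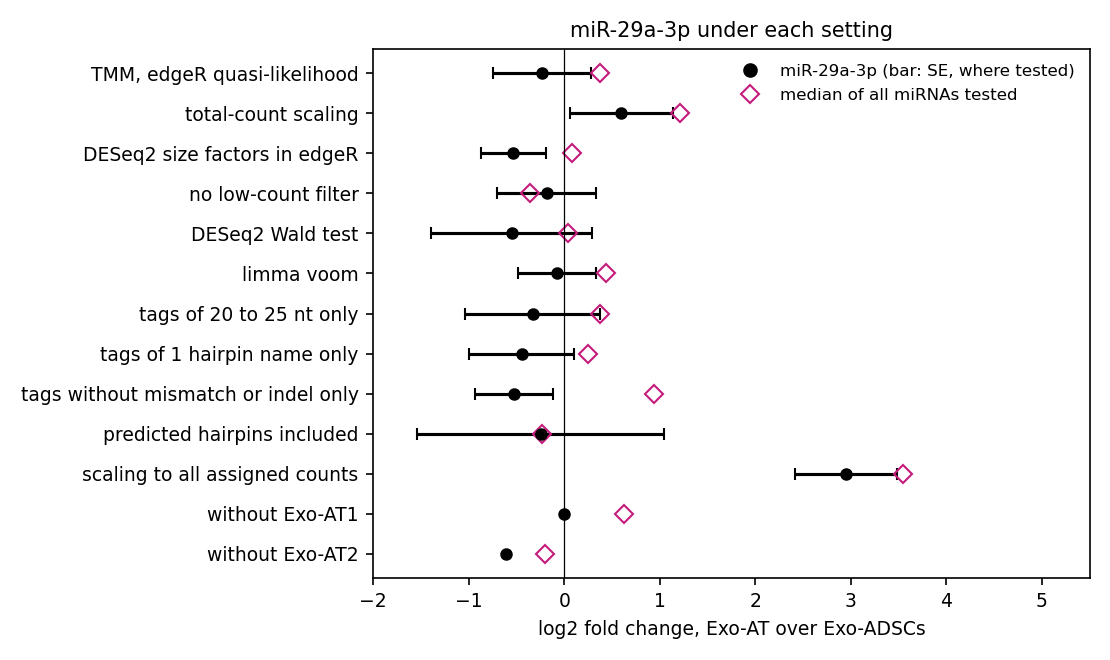
Log2 fold change of miR-29a-3p (points, bars are SE where a test was possible) and the median of all miRNAs tested (diamonds) under each scaling, test and choice of reads. The value moves between -0.60 and 2.95.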

How the data were processed

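Per the submitters' processing notes, Novoalign 2.07.11 and the rn6 build were used; the sources used here do not give the trimming, the miRNA release or the hairpin prediction. Inserts of about 15 to 35 nt were read for 36 cycles, per the labels' protocols. The authors deposited whole-number counts per distinct read sequence and hairpin, with a tag's reads divided and rounded where it was listed under several hairpins, for 3 libraries. Rounding left the assigned counts 0.503% and 0.121% above the reads in Exo-AT1 and Exo-AT2, and 0.0309% in Exo-ADSCs2. A list of 45 miRNAs holds values that the authors head normalized reads (a score here, factor not stated), of which only the names were read. The file of Exo-ADSCs1 names no miRNA and was not used.

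Positions were corrected for 5 bases counted before each hairpin (98.4% of exact tags then matched their hairpin). Counts were summed per arm (348 forms), filtered with edgeR's default expression filter (minimum count 10, total 15), which kept 183, and tested with edgeR 4.0.16 in R 4.3.3 (quasi-likelihood, two-sided, TMM factors 1.39 and 1.08 for Exo-AT1 and Exo-AT2 and 0.664 for Exo-ADSCs2) at an adjusted p of 0.05. The spread comes from the 2 Exo-AT libraries (1 residual degree of freedom), and the lone Exo-ADSCs library is assumed to vary like them. The edgeR test pools that spread over all 183 miRNAs (183 total degrees of freedom). Its p-values and intervals therefore hardly follow the spread of a single miRNA. SE is the absolute log2 fold change over the root of F. DESeq2 1.42.0 and limma 3.58.1 were alternatives. The fit was also run on simulated counts with known folds and a common dispersion. That setting lacks the difference in make-up between these libraries and any spread particular to a miRNA, so it does not bear on the calls here. RefSeq sequences (GRCr8) matched 297 of 348 forms. miR-29 forms, the 3 nearest miRNAs and up to 4 members of each fibrosis list were named by rule. Members, lists and the 20-count minimum were chosen with earlier results of these data known.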

Additional observations from a re-analysis of the deposited data

How the results depend on the processing

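The log2 fold change of miR-29a-3p was below 0 in 10 of 12 alternatives. It was 0.60 with total named counts and 2.95 with all hairpin-assigned counts, the only one of 10 tested alternatives that called it (adjusted p from 3.32e-07 to 0.976, edgeR, DESeq2 or limma). Relative to the median of all miRNAs it was -0.61 with TMM, total-count and DESeq2 scaling, which shift all miRNAs nearly alike. Over all alternatives this distance ran from -1.46 with only tags free of mismatches to 0.17 without a filter on low counts, and it was -0.01 with predicted hairpins included. The log2 fold change itself stood at -0.0017 without Exo-AT1 and at -0.60 without Exo-AT2. Its distance from the median was then -0.62 and -0.40, in that order. These values have no test, since 1 library a group was left. Exo-ADSCs2 could not be left out. Of all 183 miRNAs, 35 were higher and 35 lower. The calls lower were 19 with total counts, the calls higher 23 with DESeq2 size factors, and 109 were higher and 5 lower with all hairpin-assigned counts. With predicted hairpins included, edgeR called 0 higher and 0 lower of 401 (5 and 20 at an unadjusted p under 0.05). The share of miR-29a-3p counts with the annotated start in Exo-AT2 was 96.4% without mismatched tags, against 65.0% with them, because the mismatched tags are mostly those that start upstream. Shares by 3′ end and length stayed within their counting intervals there. The 3 nearest miRNAs were the same with a pseudocount of 1. No paired analysis was possible because tag counts were used for 1 Exo-ADSCs library, so the groups share only 1 replicate number. Exo-AT1 rests on 14 miR-29 counts, so its shares carry wide counting intervals.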
